A study of Mus musculus with 18 samples.

Results

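The change in the effect of a Chst7 knockdown between day 0 and day 1 of cardiac induction was examined in mouse embryonic fibroblasts of a line named iMGT-Myh6-eGFP. For each gene, the siChst7 over siControl difference at day 1 minus the same difference at day 0 was estimated, on the log2 scale, and is called the shift. A shift above 0 means that siChst7 stood higher relative to siControl at day 1 than at day 0. The shift rests on 12 of the 18 libraries of the series, in 4 groups of 3 biological replicates, and was tested for 13802 of the 24514 genes counted. The remaining 6 libraries, from day 3, entered the fit for its estimate of spread and are not described.

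The 4 groups were siChst7 at day 1, siControl at day 1, siChst7 at day 0 and siControl at day 0. All of them carried the doxycycline-inducible factors Mef2c, Gata4 and Tbx5 and a green fluorescent reporter under the promoter of Myh6, the heavy chain of cardiac myosin. Cells were transfected on the day before day 0 with an siRNA against Chst7 or with a control siRNA. Day 1 cells had then received doxycycline at 1 µg/mL for 1 day, while day 0 cells were harvested before any doxycycline. Day 1 therefore differs from day 0 both in the factors and in 1 more day after transfection, and these cannot be told apart. Each sample pooled 40 wells plated at 1000 cells, and a single line and a single siRNA label per gene were used, so the replicates do not cover other lines or other siRNA sequences. The series title names the upkeep of fibroblast identity in cardiac reprogramming and heart repair as the subject.

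Chst7 is a Golgi enzyme that adds sulfate to sugar chains such as chondroitin sulfate, which are carried by proteoglycans of the cell surface and the matrix. Fibroblasts in culture hold a contractile, matrix-forming programme. In it, Srf with its actin-sensing cofactors and the Hippo pathway effectors drive cytoskeletal genes, and transforming growth factor beta drives smooth muscle actin and matrix genes. In cardiac reprogramming, Mef2c, Gata4 and Tbx5 push fibroblasts toward a cardiomyocyte state. Inflammatory, interferon and some growth factor signalling have been reported to oppose it, which was not tested here.

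Library totals were 39246932 to 44807490 counts in siChst7 and 34467618 to 36188373 in siControl at day 1, and 42829857 to 50021142 in siChst7 and 44687733 to 46730986 in siControl at day 0. Replicates of a group differed from each other by 2.96 to 5.48 times sampling noise (chi-square per degree of freedom over genes), except that siChst7 replicate 3 at day 0 differed from the other 2 of its group by 15.2 and 15.6 times. In that library, differences from the siControl mean of day 0 increased with gene length (Spearman rho 0.21 across genes), against -0.05 and -0.04 in the other 2. Taken against siControl, this measure also holds the knockdown effect. Against the siControl mean of day 1, siChst7 replicates 1, 2 and 3 of day 1 gave -0.13, -0.007 and -0.08. Leading counts below are also given without siChst7 replicate 3 of day 0. The labelled cell type was checked against its markers. Vim, Col1a1 and Ddr2 were abundant in all libraries, whereas Thy1, another fibroblast marker, stayed at or below 0.445 CPM (counts per 1e+06 counts of the scaled library total). Of 5 markers of heart muscle, Actn2 and Ryr2 stayed at or below 0.0287 and 0.0582 CPM in every library. Tnnt2 averaged 111 CPM in siChst7 and 86.2 CPM in siControl at day 1, and 20.8 CPM in siChst7 and 9.65 CPM in siControl at day 0. Myh6 lay between 0.825 and 3.90 CPM and Actc1 between 0 and 3.14 CPM, and both averaged more at day 1 than at day 0 with either siRNA. In bulk libraries such as these, fewer cells of a type and less RNA per cell cannot be told apart.

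Chst7 itself was strongly depleted on both days. At day 1 it had 0.950, 0.581 and 0.733 CPM in siChst7 cells, against 40.4, 37.2 and 35.3 CPM in siControl cells. Day 0 gave 0.238, 0.611 and 0.465 CPM in siChst7 cells, against 19.7, 18.6 and 19.2 CPM in siControl cells. All siChst7 libraries thus lay far below all siControl libraries, at 2.01% of the siControl mean at day 1 and 2.29% at day 0. The shift of Chst7 was -0.18 ± 0.34 (standard error of the edgeR quasi-likelihood fit; adjusted p = 0.808), so a change in the depth of the knockdown was not detectable at this depth.

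The delivered factors were induced in both arms. Mef2c reached 559.7, 587 and 565 CPM in siChst7 cells at day 1, against 531, 524 and 514 CPM in siControl cells, and its shift was 0.13 ± 0.07 (edgeR adjusted p = 0.265). Gata4 had a shift of 0.22 ± 0.07 (edgeR adjusted p = 0.0523). Tbx5 had 1299, 1317 and 1305 CPM in siChst7 and 1249, 1200.0 and 1208 CPM in siControl cells at day 1, and 119, 119 and 137 CPM in siChst7 and 138, 139.9 and 132 CPM in siControl cells at day 0. The siChst7 libraries were the higher ones at day 1, while at day 0 the groups overlapped. Its shift of 0.23 ± 0.07 passed the test (edgeR adjusted p = 0.0277), but not with upper quartile scaling (adjusted p = 0.0566), with library totals (0.167) or, at up to 0.0861, without replicate 1 or 2 of either day 0 group or replicate 2 or 3 of either day 1 group. These counts do not separate the delivered copies from the cells' own. Myh6 was low throughout, with 3.90, 2.81 and 3.38 CPM in siChst7 and 2.83, 2.73 and 3.02 CPM in siControl cells at day 1, and its shift was 0.02 ± 0.27 (edgeR adjusted p = 0.985).

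Across all genes tested, 1615 (11.7%) had a shift that passed the edgeR test at an adjusted p below 0.05. The shift was upward for 856 (6.2%) and downward for 759 (5.5%), and 130 genes shifted by at least 2-fold, 69 up and 61 down. Without siChst7 replicate 3 of day 0 there were 1465 calls, 850 up and 615 down. When libraries were scaled by their totals instead, 522 genes shifted up and 1206 down, so that 30.2% of calls were upward, against 856 of 1615 with the scaling used here. Each day's own effect served as background. At day 1, 2426 genes (17.6%) were called between siChst7 and siControl, 1223 (8.86%) higher and 1203 (8.72%) lower, and at day 0 there were 3785 (27.4%), 1916 (13.9%) higher and 1869 (13.5%) lower. From day 0 to day 1 itself 8285 genes (60%) were called in siChst7, 4073 (29.5%) higher and 4212 (30.5%) lower, against 8322 (60.3%) in siControl, 4071 (29.5%) higher and 4251 (30.8%) lower.

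**Figure D1:**
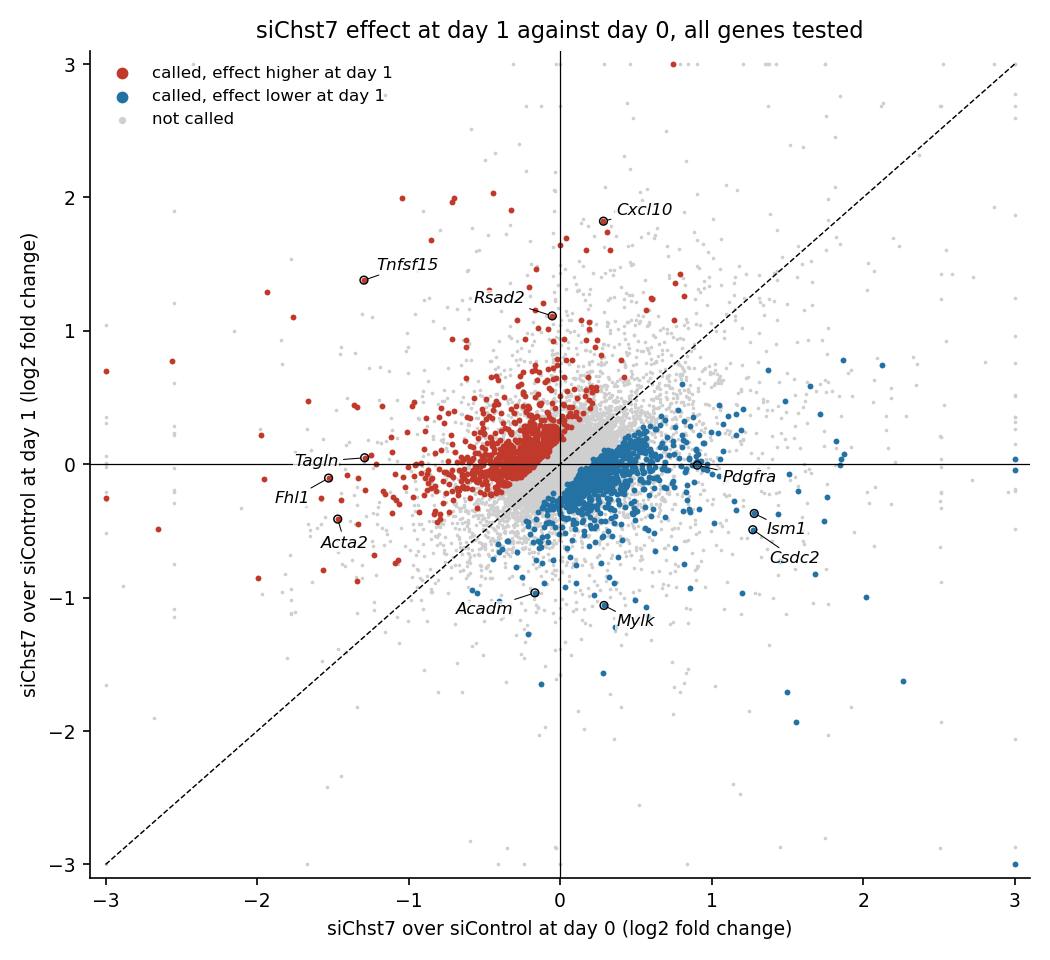
The siChst7 over siControl log2 fold change at day 1 (vertical axis) is plotted against that at day 0 (horizontal axis) for the 13802 genes tested, with values beyond 3 drawn at 3. Points are coloured by the interaction test, the dashed line marks equal effects on both days, and many coloured points lie along the horizontal line where the day 1 effect is 0.

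The shifts mostly came from effects that were called at day 0 and not at day 1. This held for 907 of the 1615 genes (56.2%), of which 471 shifted up, with a median effect of 0.02 at day 1 and -0.32 at day 0, and 436 shifted down, with medians of -0.03 at day 1 and 0.38 at day 0. Without siChst7 replicate 3 of day 0 the class held 764 genes. A further 333 genes (20.6%) were called at day 1 and not at day 0. For 158 genes (9.78%) both days were called with opposite signs. On both days with the same sign there were 96 genes with a smaller effect at day 1 and 40 with a larger one, and 81 genes were called on neither day. Since the interaction is made from both effects, these classes describe the shifts and do not add to their test.

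**Figure D2:**
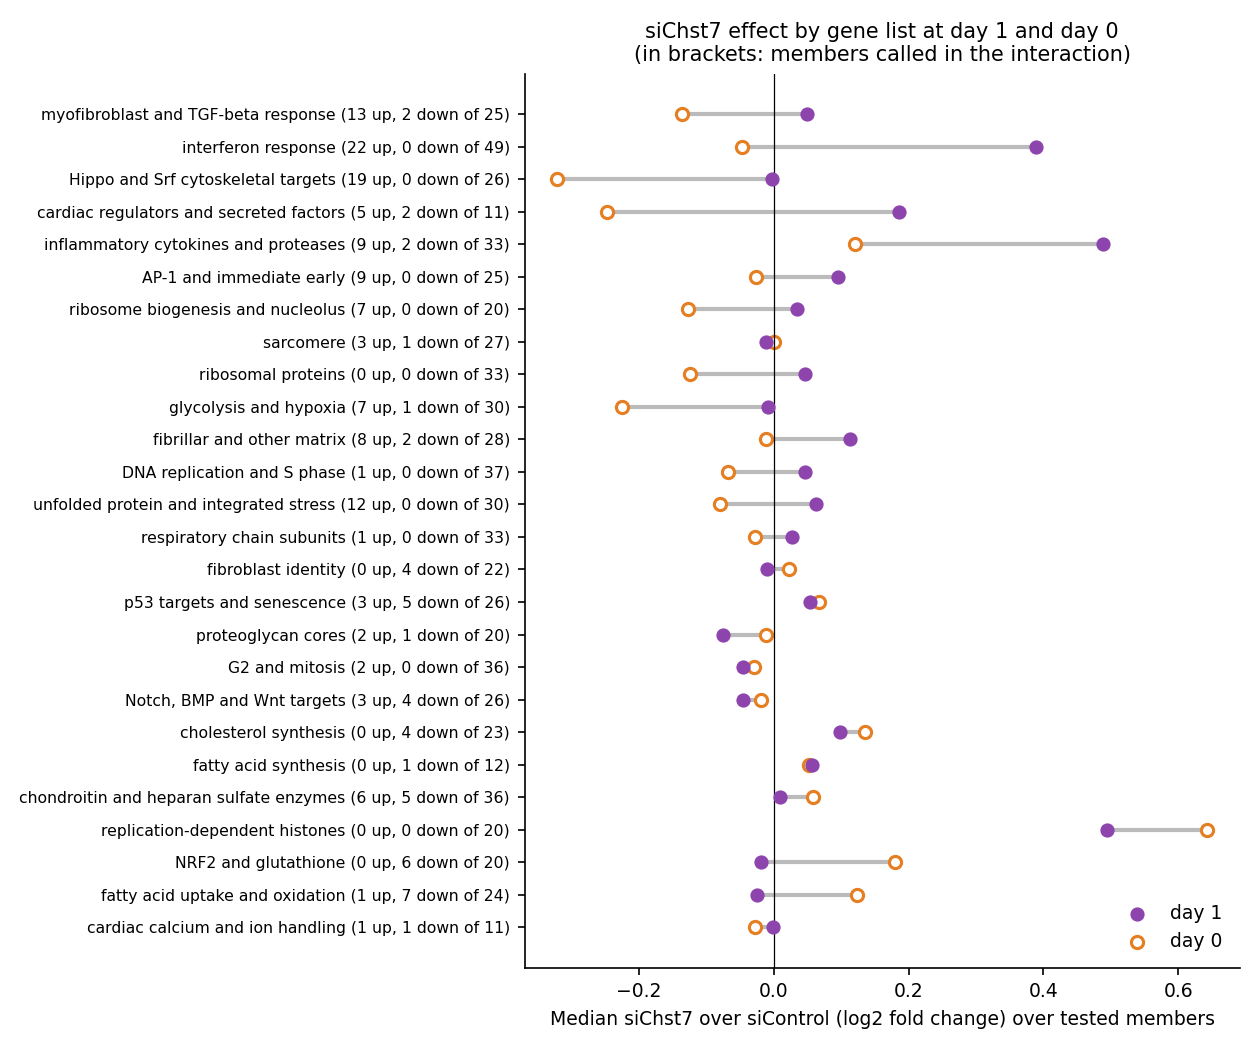
Median siChst7 over siControl log2 fold change of the tested members of each pathway list with at least 10 tested members, at day 1 (filled) and day 0 (open), ordered by the median shift. The widest gaps between days are those of cardiac regulator, interferon, inflammatory, and Hippo and Srf genes, and the brackets count members called in the interaction.

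The list of Hippo and Srf cytoskeletal targets had the highest share of upward shifts of all lists tested. It does not hold the Hippo targets Cyr61, Ctgf and Ankrd1, which are members of other lists described below. Of 26 tested members 19 shifted up and 0 down, a share of 73.1% against 6.2% of all genes, and the median shift was 0.32 against 0.00. At day 1, 4 members were higher with siChst7 and 2 lower, with a median of -0.0034, while at day 0 there were 0 higher and 21 lower, with a median of -0.32. The count of upward shifts was 19 without siChst7 replicate 3 of day 0, and at least 16 under every other scaling.

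Srf binds the CArG box, which was searched for in RefSeq promoters (GRCm38.p6, 250 bases before to 50 after a transcript start, with 1 or more starts per gene). Windows from 4 genes of the text with a match are shown because these genes moved together, with the match in capitals and 30 bases in all, read on the strand of the gene. The starts behind the Fhl1 and Srf windows lie inside the span that RefSeq gives each of these genes. Srf holds a second match further down, and 1 window each is shown.
Fhl1 (chrX:56779571-56779600, plus strand): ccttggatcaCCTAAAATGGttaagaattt
Myl9 (chr2:156775293-156775322, plus strand): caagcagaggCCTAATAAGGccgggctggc
Vcl (chr14:20929161-20929190, plus strand): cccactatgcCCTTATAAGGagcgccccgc
Srf (chr17:46556225-46556254, minus strand): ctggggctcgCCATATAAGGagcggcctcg
Among Hippo and Srf list members with a promoter in the table, 5 of 23 (21.7%) held a match, against 174 of 10512 (1.66%) of all tested genes. Of the members that shifted up it was 4 of 17 (23.5%), and of the myofibroblast and TGF-beta list 0 of 15. The list was made of Srf targets among others, so its share above all genes says nothing about the shifts. No match was found for Tagln, Acta2, Actb, Cyr61, Ankrd1, Ctgf or Tpm1, which were also looked up. A gene without a promoter sequence can give no match, and 82 of the 116 named genes have one. Which of the genes without a match have one is not given here, so a CArG box in them is not excluded. A match is a description of the letters and not a bound site.

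Fhl1, a LIM protein of the sarcomere and stress fibres (chrX:56731209-56793346 in GRCm38.p6, as RefSeq gives gene spans), had the largest shift of the list. At day 1 it had 455, 437 and 475 CPM in siChst7 cells, against 496, 491 and 483 CPM in siControl cells. Day 0 values were 58.2, 57.9 and 61.5 CPM in siChst7 cells, against 164, 169 and 179 CPM in siControl cells. The groups did not overlap on either day, but they were close at day 1, with an effect of -0.10 ± 0.06, and far apart at day 0, with an effect of -1.53 ± 0.07. The shift was 1.42 ± 0.09 (edgeR adjusted p = 7.07e-10). From day 0 to day 1 Fhl1 rose by 2.94 in siChst7 and by 1.52 in siControl cells (log2).

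Myl9, a regulatory light chain of non-muscle and smooth muscle myosin, had 383, 372 and 394 CPM in siChst7 and 416, 401 and 404 CPM in siControl cells at day 1. Its day 0 values were 219.9, 213 and 211 CPM in siChst7 and 405, 412 and 441 CPM in siControl cells. Libraries of siChst7 were below the siControl ones on both days, narrowly at day 1 and by almost 2-fold at day 0, and the shift was 0.88 ± 0.09 (edgeR adjusted p = 5.62e-07). Mical2, which oxidises actin and feeds Srf signalling, changed sign, with an effect of 0.41 ± 0.05 at day 1 and -0.44 ± 0.05 at day 0. Actb, beta actin, had 5579, 5495 and 5595 CPM in siChst7 and 5989, 5821 and 5717 CPM in siControl cells at day 1, and 4796, 4823 and 5326 CPM in siChst7 and 7199, 6999 and 7207 CPM in siControl cells at day 0. It is given, chosen after its values were seen, because a gene often used for normalisation was lower in all 3 siChst7 libraries at day 0. Vcl (vinculin), Flna (filamin), Tln1 (talin), Zyx (zyxin) and Tpm4 (tropomyosin) were among the other members that shifted up, by 0.45 ± 0.06, 0.38 ± 0.06, 0.32 ± 0.07, 0.30 ± 0.07 and 0.57 ± 0.10. Cfl1, cofilin, was the most abundant member that did not pass, with a shift of 0.19 ± 0.07 (edgeR adjusted p = 0.0845).

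**Figure D3:**
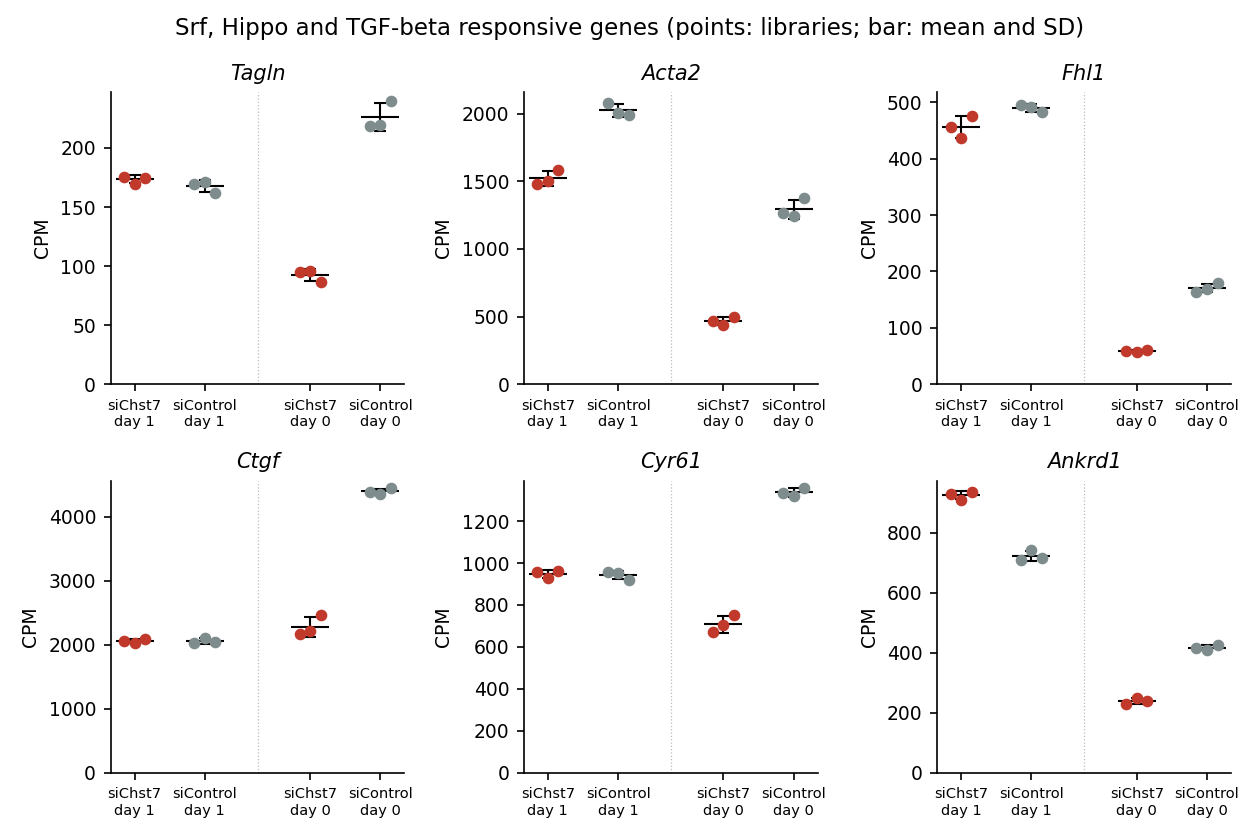
CPM of 6 contractile, Hippo and TGF-beta responsive genes in each library at day 1 and day 0, with siChst7 in red and siControl in grey, and the mean and SD of 3 libraries as bars. At day 0 the siChst7 libraries lie below the siControl libraries in all 6 panels. At day 1 they lie above them for Ankrd1, below them for Acta2 and Fhl1, and close to them for Tagln, Cyr61 and Ctgf.

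Genes of the myofibroblast and TGF-beta response shifted in the same direction. Of 25 members, all tested, 13 shifted up and 2 down, a share upward of 52.0%, with a median shift of 0.35. The siChst7 effect at day 1 had 7 members higher and 4 lower, against 4 higher and 11 lower at day 0. Without siChst7 replicate 3 of day 0 the upward count was 15.

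Tagln, an actin-binding protein of smooth muscle and myofibroblasts (chr9:45929628-45936058), had 176, 169.6 and 175 CPM in siChst7 cells at day 1, against 169.7, 172 and 162 CPM in siControl cells. At day 0 Tagln had 95.1, 95.7 and 86.4 CPM in siChst7 cells, against 219, 219.7 and 239.7 CPM in siControl cells. The groups overlapped at day 1 and stood more than 2-fold apart at day 0, which gave a shift of 1.34 ± 0.08 (edgeR adjusted p = 6.93e-10). In siControl cells Tagln fell by 0.43 from day 0 to day 1 (log2), while in siChst7 cells it rose by 0.91.

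Acta2, smooth muscle alpha actin and the usual mark of a myofibroblast, was still lower at day 1. It had 1478, 1505 and 1582 CPM in siChst7 cells at day 1, against 2077, 2006 and 1986 CPM in siControl cells. At day 0 Acta2 had 464, 440.0 and 500.0 CPM in siChst7 cells, against 1262, 1246 and 1374 CPM in siControl cells. The groups were separate on both days, and the effect of -0.41 ± 0.06 at day 1 was smaller than that of -1.47 ± 0.06 at day 0, a shift of 1.06 ± 0.09 (edgeR adjusted p = 2.09e-08). Acta2 was named after its values were seen, as were Ctgf and Tgfb2 below.

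The secreted matrix protein Cyr61 had 957, 928 and 959.9 CPM in siChst7 and 958, 953 and 921 CPM in siControl cells at day 1, where the groups overlapped. At day 0 Cyr61 had 670.0, 706 and 750.0 CPM in siChst7 and 1336, 1318 and 1359 CPM in siControl cells, and its shift was 0.92 ± 0.06. Ctgf, its close relative and also a Hippo and TGF-beta target, had effects of 0.00 ± 0.05 at day 1 and -0.95 ± 0.05 at day 0. For Tgfb2, a ligand of the pathway, the effects were -0.19 ± 0.05 at day 1 and -1.29 ± 0.06 at day 0. Downward shifts were those of the receptor Tgfbr1 (-0.29 ± 0.07) and of Tgfbi, a matrix protein that averaged 0.0814 CPM in siChst7 and 0.266 CPM in siControl cells at day 1, and 1.68 CPM in siChst7 and 0.346 CPM in siControl cells at day 0. Fn1, fibronectin, was the most abundant member that did not pass, at -0.06 ± 0.06 (edgeR adjusted p = 0.615).

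Markers of smooth muscle overlap with these lists. Their summed level was 245 to 262 CPM in siChst7 and 286 to 308 CPM in siControl libraries at day 1, and 177 to 191 CPM in siChst7 and 303 to 309 CPM in siControl libraries at day 0. Of 10 tested markers 2 shifted up and 1 down, a called share of 30.0% against 11.7% of all genes. Actg2, enteric smooth muscle actin, shifted up by 1.14 ± 0.16. The downward one was Mylk, the kinase of the myosin light chain, described with the largest downward shifts. Myh11, the defining myosin of smooth muscle, averaged 0.181 CPM over the libraries, and Smtn, smoothelin, did not pass, at 0.24 ± 0.08 (edgeR adjusted p = 0.0555). The part of smooth muscle cells in these results was not tested.

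In the matrix list 8 of 28 tested members shifted up and 2 down, a share upward of 28.6% against 6.2% of all genes. Tnc, tenascin C of wounds and growing tissue, had 364, 351 and 357 CPM in siChst7 and 285, 276 and 259 CPM in siControl cells at day 1, and 249, 250.3 and 276 CPM in siChst7 and 373, 354 and 379 CPM in siControl cells at day 0. Its siChst7 libraries were above all siControl libraries at day 1 and below them at day 0, a shift of 0.90 ± 0.07 (edgeR adjusted p = 2.21e-08). Col12a1 shifted by 0.65 ± 0.08, from a day 0 effect of -0.77 ± 0.06. The fibrillar collagen Col11a1 went the other way, at -0.73 ± 0.10, with an effect of -0.18 ± 0.07 at day 1 and 0.55 ± 0.07 at day 0. Col5a2, an abundant fibrillar collagen, did not pass, at 0.15 ± 0.06 (edgeR adjusted p = 0.0836).

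Cardiac regulators and secreted factors included several Srf and strain responsive genes. Of 11 tested members 5 shifted up and 2 down, a called share of 63.6% against 11.7% of all genes, with 3 up without replicate 1 of any of the 4 groups. Ankrd1, a strain-responsive cofactor and Hippo target (chr19:36111965-36119844), had 928, 911 and 937 CPM in siChst7 cells at day 1, against 709, 742 and 716 CPM in siControl cells. At day 0 Ankrd1 had 229, 249 and 241 CPM in siChst7 cells, against 416, 411 and 425 CPM in siControl cells. All 3 siChst7 libraries were above all siControl libraries at day 1 and below them at day 0, a shift of 1.16 ± 0.07 (edgeR adjusted p = 2.9e-10).

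Srf, the transcription factor itself, had 210.5, 194 and 213 CPM in siChst7 and 214, 210.0 and 208 CPM in siControl cells at day 1, which overlapped. At day 0 Srf had 187, 185 and 206 CPM in siChst7 and 301, 298 and 299 CPM in siControl cells, which did not, and the shift was 0.60 ± 0.07 (edgeR adjusted p = 1.76e-06). Nppb, the B-type natriuretic peptide, had 9.63, 8.30 and 9.48 CPM in siChst7 and 6.32, 7.96 and 6.05 CPM in siControl cells at day 1, a shift of 1.77 ± 0.25 from a day 0 effect of -1.34 ± 0.21. Ppargc1a, a coactivator of mitochondrial and fatty acid genes named after its values were seen, shifted down by 1.01 ± 0.16. It had 15.8, 18.4 and 18.3 CPM in siChst7 and 12.1, 12.0 and 13.7 CPM in siControl cells at day 1, and 12.3, 11.7 and 13.0 CPM in siChst7 and 3.99, 4.72 and 4.50 CPM in siControl cells at day 0, so it was higher with siChst7 on both days and less so at day 1. Mef2d did not pass, at 0.04 ± 0.08 (edgeR adjusted p = 0.807).

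Few sarcomere genes shifted, at a share of 14.8%, near the 11.7% of all genes. Of 27 tested, 3 shifted up, which were Pdlim5 and Ldb3, linkers of the Z disc, and Tpm1, tropomyosin (0.54 ± 0.05). Pdlim5 had 596, 597 and 627 CPM in siChst7 and 656, 647 and 654 CPM in siControl cells at day 1, and 282, 284 and 302 CPM in siChst7 and 520.1, 539 and 551 CPM in siControl cells at day 0. All siChst7 libraries were lower on both days, far more so at day 0, and the shift was 0.79 ± 0.05 (edgeR adjusted p = 1.49e-09). Tnnt2, cardiac troponin T, was the 1 member that shifted down, at -0.75 ± 0.11. It was higher with siChst7 on both days, with 122, 96.3 and 114 CPM in siChst7 and 84.4, 89.6 and 84.6 CPM in siControl cells at day 1, and 20.4, 21.5 and 20.5 CPM in siChst7 and 10.1, 9.94 and 8.92 CPM in siControl cells at day 0. Cryab, the small heat shock protein of the Z disc, did not pass, at 0.39 ± 0.18 (edgeR adjusted p = 0.192).

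Interferon response genes formed a second group of upward shifts, of another shape, since they differed between siRNAs mainly at day 1. Of 49 tested members 22 shifted up and 0 down, a share of 44.9% against 6.2% of all genes, with a median shift of 0.34. At day 1, 33 members were higher with siChst7 and 0 lower, with a median of 0.39, while at day 0 there were 4 higher and 5 lower, with a median of -0.05. From day 0 to day 1 the median member fell by 0.58 in siChst7 and by 0.88 in siControl cells (log2). The upward count was 27 without siChst7 replicate 3 of day 0, and ranged from 15, without siControl replicate 1 of day 1, to 27 when each library was left out in turn.

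The interferon-stimulated response element was searched on both strands as GAAANNGAAA in the RefSeq promoters. The 4 windows below are from named interferon genes with a match and are shown because the list moved together, with the match in capitals, read on the strand of the gene, so that a match beginning with TTTC lies on the opposite strand.
Cxcl10 (chr5:92349083-92349112, minus strand): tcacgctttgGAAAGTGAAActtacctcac
Rsad2 (chr12:26456553-26456582, minus strand): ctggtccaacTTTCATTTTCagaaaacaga
Ifit1 (chr19:34640775-34640804, plus strand): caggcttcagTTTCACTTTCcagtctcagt
Isg15 (chr4:156200877-156200906, minus strand): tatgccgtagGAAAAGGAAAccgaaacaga
The element matched in 11 of the 16 promoters of interferon list members that shifted up (68.8%), in 19 of 38 of all tested members with a promoter (50%), and in 385 of 10512 of all tested genes (3.66%). The list was made of interferon genes, so its share above all genes says nothing about the shifts. No match was found for Zbp1 or Oas2, and a gene without a promoter sequence can give none. Whether Zbp1 and Oas2 have a promoter sequence is not given here. Isg15 and Ifit1 hold further matches, and only the most upstream one of each is in capitals. In Isg15 the next match overlaps the marked one. The matches describe letters, and binding was not measured.

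Cxcl10, a chemokine induced by interferon (chr5:92346638-92348889), had 3.43, 3.00 and 4.63 CPM in siChst7 cells at day 1, against 1.57, 0.891 and 0.669 CPM in siControl cells. At day 0 Cxcl10 had 44.5, 43.5 and 57.3 CPM in siChst7 cells, against 40.3, 38.4 and 40.3 CPM in siControl cells. Both siRNA groups lost most of this transcript from day 0 to day 1, and the siChst7 libraries kept more, with a shift of 1.54 ± 0.33 (edgeR adjusted p = 0.00347). At day 1 its 3 siControl libraries held 106 counts together.

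Isg15, a ubiquitin-like protein added to other proteins after interferon, had 50.1, 46.8 and 45.2 CPM in siChst7 and 30.7, 33.2 and 37.3 CPM in siControl cells at day 1. At day 0 Isg15 had 51.2, 45.9 and 51.4 CPM in siChst7 and 73.0, 70.4 and 64.8 CPM in siControl cells. The siChst7 libraries were all above the siControl ones at day 1 and all below them at day 0, a shift of 0.98 ± 0.13 (edgeR adjusted p = 2.56e-05). Its level changed by -0.06 from day 0 to day 1 in siChst7 and by -1.04 in siControl cells (log2).

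Rsad2 (viperin, an antiviral enzyme) had 11.1, 10.4 and 13.6 CPM in siChst7 and 5.87, 5.29 and 5.09 CPM in siControl cells at day 1. At day 0 Rsad2 had 20.7, 26.3 and 27.4 CPM in siChst7 and 25.1, 26.6 and 25.3 CPM in siControl cells, which overlapped, and the shift was 1.16 ± 0.17 (edgeR adjusted p = 7.07e-05). Ifit1, which binds viral RNA, had 31.9, 29.8 and 36.0 CPM in siChst7 and 19.7, 19.1 and 21.7 CPM in siControl cells at day 1, a shift of 0.94 ± 0.15 (edgeR adjusted p = 0.000114). Zbp1, a sensor of nucleic acids in the Z form, shifted by 1.33 ± 0.21, with effects of 1.16 ± 0.18 at day 1 and -0.17 ± 0.11 at day 0. Oas2, one of the enzymes that make 2-5A, shifted by 1.32 ± 0.28, and its day 0 siChst7 libraries were spread, at 9.82, 8.26 and 15.9 CPM, around the siControl values of 12.0, 13.0 and 11.8 CPM. Slfn2, a member of the interferon-induced Schlafen family, shifted by 1.62 ± 0.34 from low levels at day 1, 1.21, 1.02 and 1.52 CPM in siChst7 and 0.421, 0.517 and 0.407 CPM in siControl cells. Slfn2, Ifit1 and Oas2 belong to families of related genes, and how reads that map to several places were counted is not given. B2m, the light chain of class I molecules and the most abundant member that did not pass, had a shift of 0.05 ± 0.17 (edgeR adjusted p = 0.904).

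**Figure D4:**
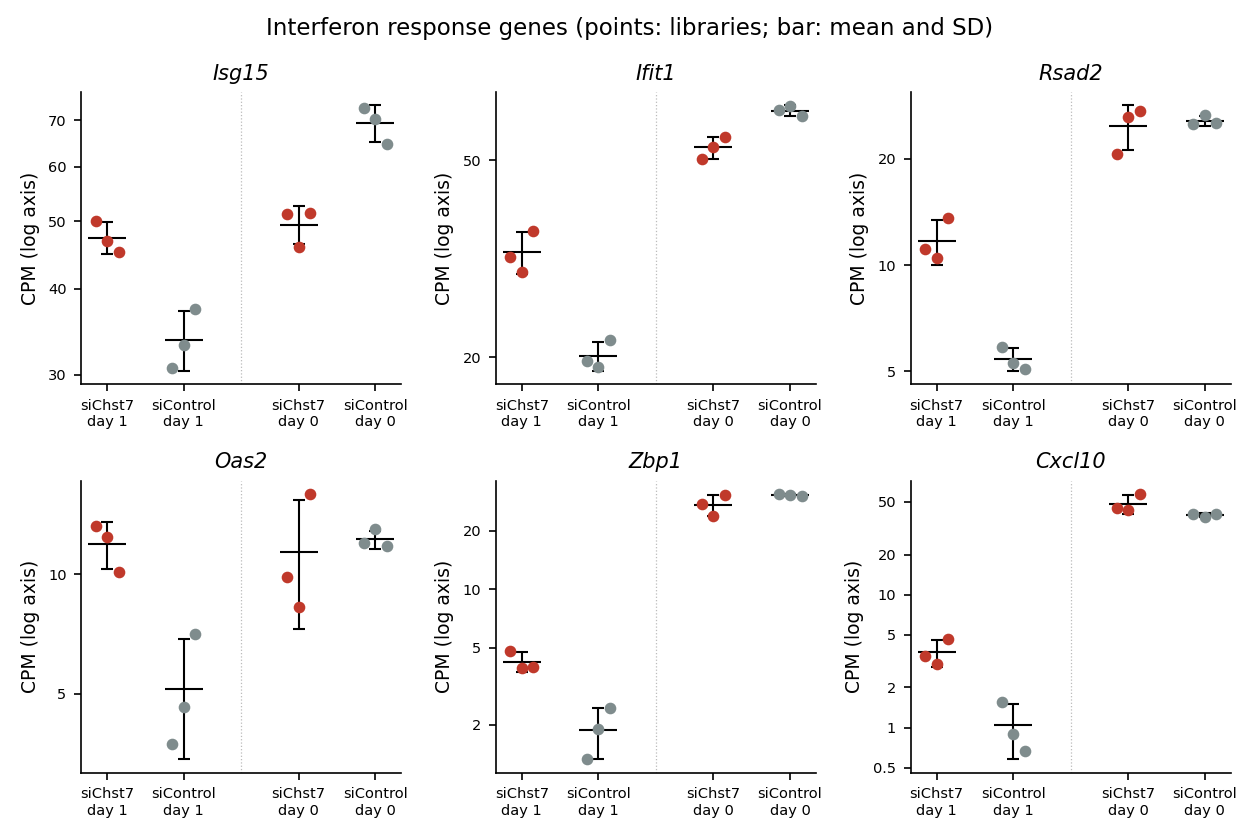
CPM on log axes of 6 interferon response genes in each library at day 1 and day 0, with siChst7 in red and siControl in grey, and the mean and SD of 3 libraries as bars. At day 1 each siChst7 library lies above each siControl library in all 6 panels, while at day 0 the groups overlap for Rsad2, Oas2 and Zbp1.

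Inflammatory cytokines and proteases also stood higher with siChst7 at day 1. Of 33 tested members 9 shifted up and 2 down, the downward ones being the chemokine Cxcl12 and the growth factor Csf1. The share upward was 27.3%, against 6.2% of all genes. The downward count was 1 without any of 7 single libraries, siChst7 replicate 3 of day 0 among them. The siChst7 effect had 16 members higher and 3 lower at day 1, against 11 higher and 3 lower at day 0. Ptgs2, the inducible cyclooxygenase, had 125, 136 and 131 CPM in siChst7 cells at day 1, against 75.7, 87.7 and 84.3 CPM in siControl cells. At day 0 Ptgs2 had 258, 267 and 261 CPM in siChst7 cells, against 344, 353 and 358 CPM in siControl cells. It changed sides between the days without overlap, a shift of 1.08 ± 0.08 (edgeR adjusted p = 8.27e-09).

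The complement component C3 shifted by 0.47 ± 0.07, with effects of 0.56 ± 0.05 at day 1 and 0.09 ± 0.05 at day 0. Il1rl1, the interleukin-33 receptor, was higher with siChst7 on both days, at 1.24 ± 0.09 at day 1 and 0.60 ± 0.06 at day 0, a shift of 0.64 ± 0.11. The chemokine Ccl2 and the iron-siderophore binding protein Lcn2, named after their values were seen, shifted by 0.87 ± 0.17 and 1.64 ± 0.28. Ccl2 had 44.1, 40.9 and 44.0 CPM in siChst7 and 19.1, 21.0 and 21.4 CPM in siControl cells at day 1, where no libraries overlapped. Cxcl5 did not pass, at 0.49 ± 0.26 (edgeR adjusted p = 0.26), and its transcript was nearly gone at day 1, with 1.16, 1.02 and 0.916 CPM in siChst7 and 0.421, 0.833 and 0.698 CPM in siControl cells.

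Markers of macrophages and leukocytes were measured beside these lists. Their summed level was 25.0 to 26.1 CPM in siChst7 and 19.2 to 21.7 CPM in siControl libraries at day 1, and 62.7 to 66.9 CPM in siChst7 and 49.5 to 55.0 CPM in siControl libraries at day 0. Of 7 tested, 0 were called in the interaction by edgeR or DESeq2 and 1 had an unadjusted edgeR p below 0.05, while 3 were higher with siChst7 at day 1 and 1 at day 0. The pan-leukocyte marker Ptprc was at or below 0.184 CPM in every library and the macrophage marker Adgre1 was at 0. Csf1r and Lyz2, also markers of such cells, lay between 0.325 and 2.00 CPM and between 1.73 and 8.31 CPM. Beyond this, the part of such cells in the inflammatory and interferon results was not tested.

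Some members of stress, growth factor and metabolic lists shifted up. The shares upward were 40.0% for the stress list, 36.0% for the immediate early list, 23.3% for glycolysis and hypoxia and 35.0% for ribosome biogenesis, against 6.2% of all genes. In the list of unfolded protein and integrated stress genes 12 of 30 shifted up and 0 down, and the siChst7 effect had 7 higher and 4 lower at day 1, against 4 higher and 13 lower at day 0. The 12 included Atf4 itself, a transcription factor of the amino acid response, and Asns, Mthfd2, Chac1, Trib3, Atf5, Psat1, Phgdh, Shmt2, Slc7a5 and Slc3a2, most of which are known as its targets. Asns, asparagine synthetase, had 85.1, 90.4 and 86.0 CPM in siChst7 and 72.9, 71.7 and 82.8 CPM in siControl cells at day 1, and 68.0, 69.3 and 69.7 CPM in siChst7 and 95.9, 92.9 and 96.5 CPM in siControl cells at day 0. Its siChst7 libraries were all higher at day 1 and all lower at day 0, a shift of 0.67 ± 0.09 (edgeR adjusted p = 3.48e-05). Mthfd2, of mitochondrial folate metabolism, shifted by 0.55 ± 0.07 and Atf4 itself by 0.42 ± 0.06. The chaperone Hsp90b1 did not pass, at 0.01 ± 0.07 (edgeR adjusted p = 0.967). The list median was 0.06, and 0.00037 with library totals.

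Among AP-1 and immediate early genes 9 of 25 shifted up and 0 down. Spry2, an inhibitor of growth factor signalling that is itself induced by it, had 42.4, 40.2 and 42.9 CPM in siChst7 and 29.2, 32.4 and 31.0 CPM in siControl cells at day 1, and 28.3, 29.3 and 31.0 CPM in siChst7 and 36.1, 34.6 and 34.3 CPM in siControl cells at day 0. Every siChst7 library was above every siControl one at day 1 and below at day 0, a shift of 0.68 ± 0.08 (edgeR adjusted p = 4.35e-06). Dusp1, a phosphatase of MAP kinases, and the zinc finger factor Klf6 shifted by 0.57 ± 0.09 and 0.35 ± 0.05, with day 0 effects of -0.65 ± 0.07 and -0.44 ± 0.04. Jun did not pass, at 0.11 ± 0.06 (edgeR adjusted p = 0.284).

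In the glycolysis and hypoxia list 7 of 30 shifted up and 1 down, with 4 higher and 7 lower with siChst7 at day 1, against 3 higher and 17 lower at day 0. Ndrg1, a hypoxia-induced gene, had 119, 122 and 118 CPM in siChst7 and 105, 106 and 107 CPM in siControl cells at day 1, and 47.5, 48.8 and 50.7 CPM in siChst7 and 73.4, 78.0 and 76.2 CPM in siControl cells at day 0. The siChst7 libraries were the higher at day 1 and the lower at day 0, a shift of 0.81 ± 0.06 (edgeR adjusted p = 3.72e-09). Pfkp, a phosphofructokinase, shifted by 0.39 ± 0.05, while the abundant Pkm did not pass, at 0.06 ± 0.08 (edgeR adjusted p = 0.713). Ribosome biogenesis genes had 7 of 20 shifted up and 0 down, with small sizes, 0.25 ± 0.06 for Wdr43, 0.21 ± 0.06 for the nucleolar methyltransferase Fbl and 0.38 ± 0.11 for Nop58. Each of these 3 was lost in at least 1 alternative (edgeR adjusted p up to 0.0534 for Wdr43, 0.123 for Fbl and 0.0661 for Nop58). The count was 3 without siControl replicate 2 or 3 of day 0, siChst7 replicate 1 of day 1 or siControl replicate 1 of day 1, 4 without siChst7 replicate 3 of day 0 or siControl replicate 3 of day 1, and 1 with library totals. Npm1 did not pass, at 0.25 ± 0.15 (edgeR adjusted p = 0.306).

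Leaving out siChst7 replicate 3 of day 0 gave upward counts of 11 for the stress list, 11 for the immediate early list, 8 for glycolysis and hypoxia, 8 for the inflammatory list and 9 for the matrix list. Downward counts without it were 6 for the NRF2 list and 7 for fatty acid oxidation, both described below.

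Downward shifts included receptors and regulators of fibroblasts. The fibroblast identity list had 4 of 22 tested members shifted down and 0 up, a share of 18.2% against 5.5% of all genes downward, and that count fell to 1 or 2 without some single libraries. The list as a whole did not move down, with a median shift of 0.03 and 13 of 22 members above 0. Without siChst7 replicate 3 of day 0, 3 members shifted down and 1 up. Pdgfra, the receptor of platelet-derived growth factor that marks fibroblasts (chr5:75151322-75198206), had 34.6, 39.6 and 36.6 CPM in siChst7 cells at day 1, against 37.3, 38.7 and 35.5 CPM in siControl cells. At day 0 Pdgfra had 126, 120.4 and 129 CPM in siChst7 cells, against 67.7, 68.2 and 64.6 CPM in siControl cells. The groups overlapped at day 1 and were nearly 2-fold apart at day 0, with siChst7 the higher, a shift of -0.91 ± 0.08 (edgeR adjusted p = 2.65e-08). Pdgfrb, the related receptor, was higher with siChst7 on both days, by 0.60 ± 0.04 at day 1 and 0.81 ± 0.04 at day 0. Its shift of -0.21 ± 0.06, like that of the mesenchymal factor Prrx1 (-0.21 ± 0.06), was lost in 4 of 21 alternatives each, with an edgeR adjusted p of up to 0.0881 for Pdgfrb and 0.0555 for Prrx1. Vim did not pass, at 0.05 ± 0.06 (edgeR adjusted p = 0.677), and was lower with siChst7 on both days, by -0.32 ± 0.04 at day 1 and -0.37 ± 0.04 at day 0. The list count was 1 without siControl replicate 2 of day 1, and 2 without siControl replicate 1 or 3 of day 0 or siChst7 replicate 3 of day 1.

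Part of the antioxidant, fatty acid and sterol genes shifted down. The list of NRF2 and glutathione genes had 6 of 20 shifted down and 0 up, a share of 30.0% against 5.5% of all genes downward, with 2 higher and 4 lower with siChst7 at day 1, against 11 higher and 1 lower at day 0. Cat, catalase, had 74.4, 76.5 and 72.2 CPM in siChst7 and 83.4, 85.5 and 84.1 CPM in siControl cells at day 1, and 81.4, 79.6 and 83.2 CPM in siChst7 and 72.7, 70.1 and 68.0 CPM in siControl cells at day 0. Its siChst7 libraries were all lower at day 1 and all higher at day 0, a shift of -0.39 ± 0.06 (edgeR adjusted p = 5.08e-05). Gclc, of glutathione synthesis, and Srxn1, which repairs peroxiredoxins, shifted by -0.34 ± 0.06 and -0.31 ± 0.06. Txnrd1 did not pass, at 0.05 ± 0.06 (edgeR adjusted p = 0.703).

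Fatty acid uptake and oxidation had 7 of 24 tested members shifted down and 1 up, a called share of 33.3% against 11.7% of all genes. Acadm, medium-chain acyl-CoA dehydrogenase (chr3:153922353-153944643), had 40.7, 35.0 and 38.6 CPM in siChst7 cells at day 1, against 70.7, 76.9 and 75.1 CPM in siControl cells. At day 0 Acadm had 13.5, 14.1 and 13.2 CPM in siChst7 cells, against 15.1, 15.6 and 15.2 CPM in siControl cells. Libraries of siChst7 were the lower on both days, narrowly at day 0 and by almost 2-fold at day 1, a shift of -0.80 ± 0.10 (edgeR adjusted p = 5.9e-06). Acaa2 and Acadvl, also enzymes of mitochondrial beta-oxidation, shifted by -0.50 ± 0.07 and -0.39 ± 0.06, from effects of 0.36 ± 0.05 and 0.25 ± 0.05 at day 0. Hadha did not pass, at -0.02 ± 0.06 (edgeR adjusted p = 0.906). Cholesterol synthesis had 4 of 23 tested members shifted down and 0 up, a share of 17.4% against 5.5% of all genes downward. Among them were Insig1, the sterol-sensing retention protein, at -0.53 ± 0.11, the synthesis enzyme Mvd at -0.37 ± 0.10 and the sterol carrier Stard4 at -0.33 ± 0.09. That count was 1 without siControl replicate 2 of day 1, and 2 without siChst7 replicate 2 of day 0, siControl replicate 2 or 3 of day 0 or siChst7 replicate 1 of day 1, and Mvd and Stard4 were lost in 4 and 6 of 21 alternatives. Srebf2 did not pass, at -0.12 ± 0.07 (edgeR adjusted p = 0.278).

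Inhibitors of the cell cycle and of growth were among the genes with downward shifts. In the list of p53 targets and senescence genes 5 of 26 tested shifted down and 3 up, a called share of 30.8% against 11.7% of all genes, with 1 up without any of 6 single libraries and with library totals. Cdkn2b, which encodes the inhibitor p15, had 57.7, 59.2 and 61.0 CPM in siChst7 and 73.7, 71.0 and 74.4 CPM in siControl cells at day 1, and 38.1, 35.7 and 33.9 CPM in siChst7 and 25.6, 28.3 and 28.2 CPM in siControl cells at day 0. The siChst7 libraries were all below the siControl ones at day 1 and all above them at day 0, a shift of -0.69 ± 0.08 (edgeR adjusted p = 2.74e-06). Its neighbour Cdkn2a did the same, with effects of -0.32 ± 0.04 at day 1 and 0.20 ± 0.04 at day 0. Trp53inp1 stayed higher with siChst7, at 0.42 ± 0.07 at day 1 and 1.21 ± 0.08 at day 0. Cdkn1a, p21, did not pass, at 0.08 ± 0.07 (edgeR adjusted p = 0.537). Ddit4, an inhibitor of mTORC1 signalling and the 1 member of the glycolysis and hypoxia list that shifted down, had 25.8, 22.9 and 27.0 CPM in siChst7 and 24.2, 25.7 and 27.4 CPM in siControl cells at day 1, which overlapped. At day 0 Ddit4 had 57.4, 54.8 and 53.1 CPM in siChst7 and 29.6, 29.7 and 26.6 CPM in siControl cells, and the shift was -0.98 ± 0.11 (edgeR adjusted p = 1.3e-06).

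**Figure D5:**
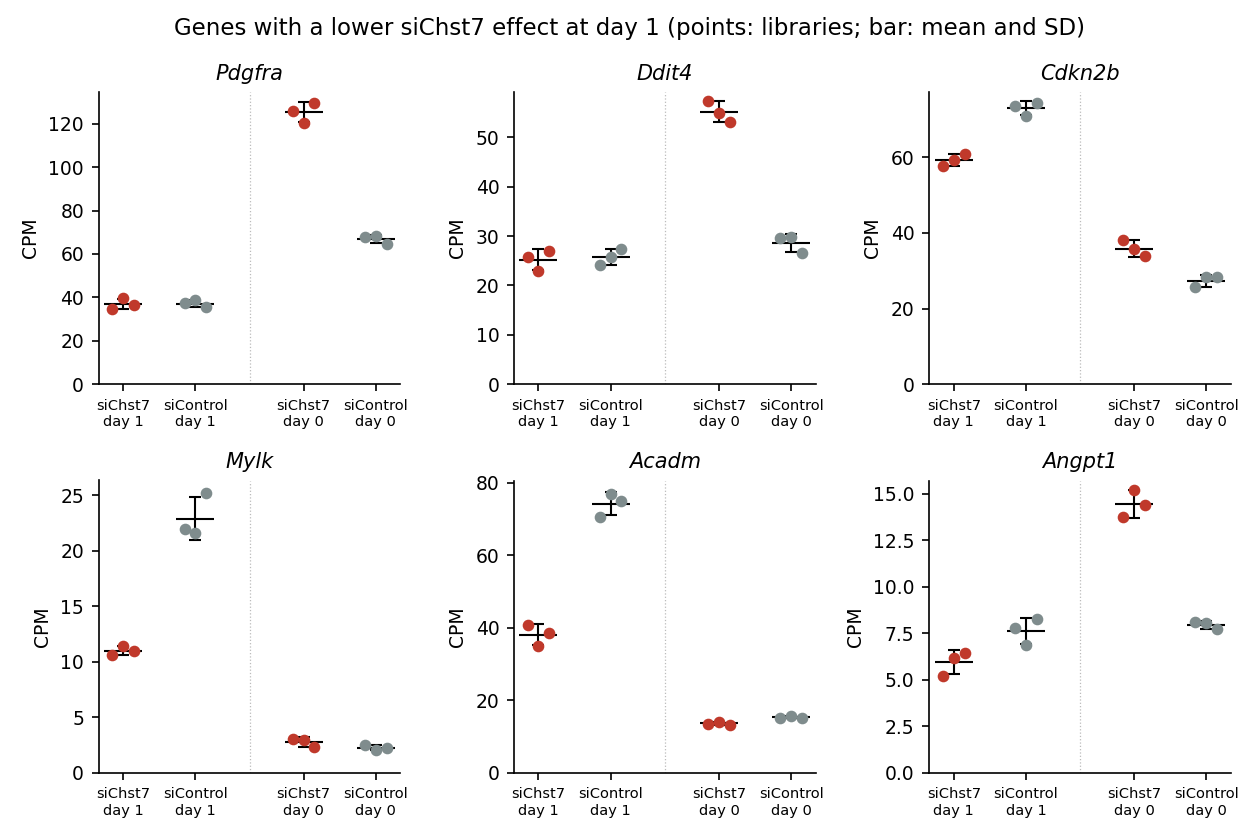
CPM of 6 genes with a downward shift in each library at day 1 and day 0, with siChst7 in red and siControl in grey, and the mean and SD of 3 libraries as bars. Pdgfra and Ddit4 are apart at day 0 and overlap at day 1, Mylk and Acadm are furthest apart at day 1, and Cdkn2b and Angpt1 change sides.

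Of the 10 largest downward shifts under the rule for named genes, 7 belonged to genes that rose from day 0 to day 1 in both arms and less in siChst7 cells. Ism1, a secreted protein (chr2:139673359-139758581), had 39.4, 39.4 and 41.8 CPM in siChst7 cells at day 1, against 52.9, 50.7 and 52.1 CPM in siControl cells. At day 0 Ism1 had 1.92, 1.90 and 2.67 CPM in siChst7 cells, against 0.761, 0.908 and 0.981 CPM in siControl cells. It was lower with siChst7 at day 1 and higher at day 0 without overlap, a shift of -1.65 ± 0.16 (edgeR adjusted p = 4.13e-07). Mylk, which phosphorylates the myosin light chain, had 10.6, 11.4 and 11.0 CPM in siChst7 and 21.9, 21.6 and 25.2 CPM in siControl cells at day 1, and 3.03, 2.96 and 2.28 CPM in siChst7 and 2.49, 2.08 and 2.23 CPM in siControl cells at day 0. Its groups were about 2-fold apart at day 1 and close at day 0, a shift of -1.35 ± 0.14 (edgeR adjusted p = 1.05e-06), opposite to that of its substrate Myl9.

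Akap6, a scaffold of protein kinase A at the nuclear envelope of muscle, rose by 5.06 in siChst7 and by 6.22 in siControl cells from day 0 to day 1 (log2), a shift of -1.16 ± 0.12. Nr4a3, an orphan nuclear receptor, and Rims2, a vesicle release protein, shifted by -1.25 ± 0.23 and -1.04 ± 0.18 in the same manner. Nrep and Fam180a were higher with siChst7 on both days and less so at day 1, with shifts of -1.07 ± 0.10 and -1.08 ± 0.25. Angpt1, the ligand of the endothelial receptor Tie2, had 5.22, 6.19 and 6.44 CPM in siChst7 and 7.80, 6.87 and 8.26 CPM in siControl cells at day 1, and 13.7, 15.2 and 14.4 CPM in siChst7 and 8.11, 8.04 and 7.71 CPM in siControl cells at day 0. It changed sides without overlap, a shift of -1.22 ± 0.14 (edgeR adjusted p = 4.35e-06), as did Arrdc3, an arrestin relative, at -1.08 ± 0.12, and the cytokine precursor Il16 at -1.13 ± 0.20.

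Tnfsf15, a cytokine of the tumour necrosis factor family, had the largest upward shift among called genes with a mean of at least 5 CPM. At day 1 Tnfsf15 (chr4:63724600-63745059) had 22.2, 21.7 and 20.5 CPM in siChst7 cells, against 7.62, 9.91 and 7.21 CPM in siControl cells. At day 0 Tnfsf15 had 0.833, 0.995 and 1.02 CPM in siChst7 cells, against 2.44, 1.95 and 2.59 CPM in siControl cells. The siChst7 libraries were all above the siControl ones at day 1 and all below them at day 0, a shift of 2.67 ± 0.21 (edgeR adjusted p = 1.48e-08). From day 0 to day 1 it rose by 4.50 in siChst7 and by 1.83 in siControl cells (log2).

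Mustn1, a muscle-expressed protein, was near 0 at day 0 and had effects of 0.48 ± 0.14 at day 1 and -1.66 ± 0.57 at day 0, a shift of 2.14 ± 0.58. Csdc2, an RNA-binding protein with a cold shock domain, was also near 0 at day 0 and had a shift of -1.76 ± 0.41. Both shifts rest on day 0 levels below 1 CPM. Mustn1 was lost without replicate 1 of either day 0 group, at an edgeR adjusted p of up to 0.0618, and Csdc2 without siChst7 replicate 3 of day 0, at 0.0585. Lims2, a LIM partner of integrin-linked kinase, had 44.7, 44.8 and 43.3 CPM in siChst7 and 49.2, 47.1 and 44.1 CPM in siControl cells at day 1, and 6.88, 6.61 and 7.30 CPM in siChst7 and 19.1, 18.2 and 17.8 CPM in siControl cells at day 0. Its groups overlapped at day 1 and were far apart at day 0, a shift of 1.32 ± 0.09 (edgeR adjusted p = 1.49e-09). Pkp2, plakophilin of the desmosome, shifted by 1.32 ± 0.18 in the same manner. Defb48, listed as a defensin, shifted by 1.37 ± 0.19 and belongs to a family of near-identical genes.

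Jag1, a ligand of Notch receptors, had 42.9, 39.0 and 42.0 CPM in siChst7 and 36.1, 35.5 and 33.2 CPM in siControl cells at day 1, and 16.1, 16.9 and 19.3 CPM in siChst7 and 36.4, 33.4 and 35.5 CPM in siControl cells at day 0. Its siChst7 libraries were all higher at day 1 and all lower at day 0, a shift of 1.25 ± 0.10 (edgeR adjusted p = 8.35e-09). In the list of Notch, BMP and Wnt targets 3 of 26 tested shifted up and 4 down, a called share of 26.9% against 11.7% of all genes, with 2 down without siChst7 replicate 2 of day 1. Grem1, a secreted antagonist of BMPs, shifted down, at -0.62 ± 0.06, and its groups overlapped at day 1, with 950.2, 971 and 948 CPM in siChst7 and 941, 1012 and 971 CPM in siControl cells. Nkd2, an inhibitor of Wnt signalling, shifted by 0.53 ± 0.13, while Sfrp1 did not pass, at -0.15 ± 0.06 (edgeR adjusted p = 0.106).

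Enzymes of chondroitin and heparan sulfate synthesis, the pathway of Chst7, shifted both ways. Of 36 tested, 6 shifted up and 5 down, a called share of 30.6% against 11.7% of all genes, with 3 up without siChst7 replicate 1 of day 0, siControl replicate 3 of day 0 or siChst7 replicate 3 of day 1, and 2 up with library totals. Papss2, which makes the sulfate donor used by Chst7 and its relatives, had 98.4, 107 and 99.7 CPM in siChst7 and 102, 101 and 90.6 CPM in siControl cells at day 1, and 10.7, 9.50 and 10.1 CPM in siChst7 and 15.8, 15.6 and 15.2 CPM in siControl cells at day 0. The groups overlapped at day 1, while all siChst7 libraries were lower at day 0, a shift of 0.67 ± 0.08 (edgeR adjusted p = 7.31e-06). Chpf2, of chondroitin chain building, and Ext1, of heparan sulfate chain building, shifted by -0.34 ± 0.06 and -0.29 ± 0.06, and Csgalnact1, which starts chondroitin chains, by -0.87 ± 0.20. Chpf did not pass, at -0.09 ± 0.08 (edgeR adjusted p = 0.519). Of the 3 tested relatives of Chst7 among the carbohydrate sulfotransferases outside that list, 1 was called, Chst2, at -0.66 ± 0.16.

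The proteoglycan cores, which carry these chains, had 2 of 20 tested shifted up and 1 down, a share of 15.0%, near that of all genes. Sdc4, the syndecan of focal adhesions, had 155, 155 and 150.4 CPM in siChst7 and 141, 146 and 138 CPM in siControl cells at day 1, and 276, 274 and 279 CPM in siChst7 and 365, 359 and 365 CPM in siControl cells at day 0. Its siChst7 libraries were above the siControl ones at day 1 and well below them at day 0, a shift of 0.51 ± 0.05 (edgeR adjusted p = 5.62e-07). Sdc2 shifted by 0.31 ± 0.09, lost in 1 alternative. The glypican Gpc6 shifted by -0.54 ± 0.17, lost in 13 of 21 alternatives (edgeR adjusted p up to 0.164). Bgn, biglycan, did not pass, at 0.04 ± 0.07 (edgeR adjusted p = 0.803).

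Several lists held no more than 2 shifts. Of 33 ribosomal protein genes 0 were called by edgeR or DESeq2 in the interaction, with 5 at an unadjusted edgeR p below 0.05 and 14 called upward when day 3 was left out of the fit or no filter was used. Of 20 replication-dependent histone genes 0 were called by edgeR or DESeq2, and 0 had an unadjusted p below 0.05, while 6 were higher with siChst7 at day 1 and 7 at day 0. Histone transcripts mostly lack a poly-A tail, and the libraries were poly-A selected. DNA replication had 1 of 37 shifted up, Gins2, mitosis 2 of 36, Tpx2 and Anln, and the respiratory chain 1 of 33, Cox6a2, a muscle isoform. These shares are below the 11.7% of all genes, although DNA replication had 7 called upward when day 3 was left out. Fatty acid synthesis had 1 of 12 shifted down, Scd2. Cardiac calcium and ion handling had 1 up, Jph2, and 1 down, Kcnj2, of 11, a share of 18.2%, above the 11.7% of all genes.

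Markers of other cell types shifted in small numbers, from lists with few tested members. The called share was 33.3% each for endothelial and epithelial markers and 28.6% for chondrocyte and osteoblast markers, against 11.7% of all genes. Neural markers had a still higher share. The share was 12.5% for skeletal muscle markers and 0 for adipocyte and for mesothelial or epicardial markers. Epithelial keratins were near 0 at day 0 and remained low at day 1, where they were higher with siChst7. Krt8 had 1.16, 1.91 and 1.28 CPM in siChst7 and 0.632, 0.402 and 0.669 CPM in siControl cells at day 1, and its shift of 1.69 ± 0.60 did not pass (edgeR adjusted p = 0.0713). Krt18 did not pass either (edgeR adjusted p = 0.24), and Krt19 did, at 3.22 ± 0.78 (edgeR adjusted p = 0.00848), from 10 counts over the 3 siChst7 and 38 over the 3 siControl libraries of day 0. These 3 keratins, named after their values were seen, are the tested members of the 9 epithelial markers, whose summed level was 3.01 to 3.65 CPM in siChst7 and 1.10 to 1.57 CPM in siControl libraries at day 1, and 0.339 to 0.416 CPM in siChst7 and 0.446 to 0.841 CPM in siControl libraries at day 0.

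Of 6 tested endothelial markers 2 shifted up, Flt1 by 0.57 ± 0.12 and Cdh5, the cadherin of endothelial junctions. Cdh5 averaged 0.167 CPM in siChst7 and 0 in siControl cells at day 1, and 3.14 CPM in siChst7 and 1.87 CPM in siControl cells at day 0, and is given no fold because 1 group is at 0. The summed endothelial level was 20.5 to 22.0 CPM in siChst7 and 14.8 to 16.8 CPM in siControl libraries at day 1, and 25.6 to 28.9 CPM in siChst7 and 20.9 to 22.7 CPM in siControl libraries at day 0. The endothelial marker Tie1 was at 0 in all libraries. Of 6 tested neural markers, Nes, a filament protein also made by muscle precursors, shifted by 0.64 ± 0.06, Tubb3 by 0.96 ± 0.26 and Sox2 by -0.43 ± 0.14, the last lost in 13 of 21 alternatives and Tubb3 in 4, and Map2 did not pass, at 0.09 ± 0.14 (edgeR adjusted p = 0.769). Sox9 and Sox5 shifted down among 7 chondrocyte and osteoblast markers, by -0.81 ± 0.19 and -1.77 ± 0.30, and 1 of 8 skeletal muscle markers, Acta1, shifted up. Of 4 adipocyte markers and of 2 mesothelial or epicardial markers 0 were called by edgeR or DESeq2, and 0 had an unadjusted p below 0.05. Of 7 tested transcripts that mark RNA quality, 1, Neat1, shifted up, by 0.55 ± 0.12, and the share of counts on Rn45s, the ribosomal RNA precursor, was 0.307 to 0.357% in siChst7 and 0.249 to 0.278% in siControl at day 1, and 0.159 to 0.228% in siChst7 and 0.131 to 0.168% in siControl at day 0. The part of these cell types and of RNA quality in the shifts was not tested.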

How the data were processed

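RNA sequencing counts were analysed from 12 libraries of day 0 and day 1. Each gene's value is a raw whole-number count, as deposited by the authors. Per the submitters' processing notes, HISAT2, Subread, featureCounts, DESeq2 and the build mm10 were used, with no role or version given. No strand setting and no rule for multi-mapping reads is given in the sources used here, so values of near-identical, overlapping or antisense genes are uncertain. 25 symbols that had been turned into dates were left unnamed. No counts per sample were left out, and the gene length column was used only for the length offset and the checks of trends with gene length.

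Counts of all 18 libraries were fitted with edgeR 4.0.16 in R 4.3.3 (quasi-likelihood F-test, TMM scaling, filterByExpr, 6 groups, no covariate). The interaction was tested with 12 residual degrees of freedom, and p-values were adjusted by Benjamini and Hochberg over the 13802 genes tested, with calls at 0.05. The standard error is the log2 fold change divided by the square root of F. CPM are counts per 1e+06 of the TMM-scaled library total. The test was checked on simulated counts. DESeq2 1.42.0 was an alternative, and figures were drawn with matplotlib 3.10.9 in Python 3.11.15.

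Members and lists were chosen with earlier results of these data known. Genes were named by rule. They are Chst7, the delivered factors and Myh6, and the 10 largest called shifts each way with a mean of at least 5 CPM that were called without each library in turn. To these come, from each list with at least 3 called members and a called share at or above that of all genes, the 3 called members of lowest p and the most abundant uncalled one, and the 5 largest called shifts with opposite effects on the days. Acta2, Ctgf, Tgfb2, Actb, Krt8, Krt18, Krt19, Ccl2, Lcn2, Ppargc1a and the remaining list members in the text were chosen after their values were seen. Some genes that the rule names are not reported here. Promoters came from RefSeq (GRCm38.p6), with a sequence for 82 of the 116 genes named by these rules and 10512 of those tested. The labels call the libraries biological replicates and do not say what separates them. The p-values therefore set each shift against the spread within groups of these libraries only, estimated from all 18. Same-numbered libraries did not deviate together (r between -0.02 and 0.06 over 18 pairs), so the numbers were not used as pairs.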

Additional observations from a re-analysis of the deposited data

Results flagged for a closer look

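Each gene here was brought up because the siChst7 effect differed between the days by a test of the difference itself, the interaction term of the edgeR fit (adjusted p below 0.05 over all genes tested). The value after each symbol is the shift, the log2 effect at day 1 minus that at day 0. The 89 genes are called genes named in the text, so the number of them follows from how genes were named.

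Among contractile, Srf and Hippo responsive genes the shifts were those of Fhl1 (1.42), Tagln (1.34), Lims2 (1.32), Actg2 (1.14), Acta2 (1.06), Myl9 (0.88), Mical2 (0.85), Pdlim5 (0.79), Tpm1 (0.54), Actb (0.45), Srf (0.60), Ankrd1 (1.16), Nppb (1.77), Cyr61 (0.92) and Ctgf (0.95). The kinase Mylk (-1.35) and cardiac troponin T, Tnnt2 (-0.75), shifted the other way. TGF-beta and matrix genes were Tgfb2 (1.09), Tnc (0.90), Col12a1 (0.65) and Col11a1 (-0.73). Proteoglycans and enzymes of their sugar chains were Papss2 (0.67), Sdc4 (0.51), Sdc2 (0.31), Chpf2 (-0.34), Ext1 (-0.29) and Gpc6 (-0.54).

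Interferon response and related genes were Slfn2 (1.62), Cxcl10 (1.54), Zbp1 (1.33), Oas2 (1.32), Rsad2 (1.16), Isg15 (0.98) and Ifit1 (0.94), and inflammatory genes and cytokines were Tnfsf15 (2.67), Lcn2 (1.64), Ptgs2 (1.08), Ccl2 (0.87), Il1rl1 (0.64), C3 (0.47) and Il16 (-1.13). Immediate early genes were Spry2 (0.68), Dusp1 (0.57) and Klf6 (0.35), stress genes Asns (0.67), Mthfd2 (0.55) and Atf4 (0.42), nucleolar genes Nop58 (0.38), Wdr43 (0.25) and Fbl (0.21), and glycolysis and hypoxia genes Ndrg1 (0.81), Pfkp (0.39) and Ddit4 (-0.98).

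Fibroblast identity genes were Pdgfra (-0.91), Prrx1 (-0.21) and Pdgfrb (-0.21). Antioxidant genes were Cat (-0.39), Gclc (-0.34) and Srxn1 (-0.31), sterol genes Insig1 (-0.53), Mvd (-0.37) and Stard4 (-0.33), and genes of fatty acid oxidation and its coactivator Acadm (-0.80), Acaa2 (-0.50), Acadvl (-0.39) and Ppargc1a (-1.01). Growth inhibitors and p53 targets were Cdkn2b (-0.69), Cdkn2a (-0.53) and Trp53inp1 (-0.79). Notch, BMP and Wnt pathway genes were Jag1 (1.25), Nkd2 (0.53) and Grem1 (-0.62). Markers of nerve and epithelium were Nes (0.64), Tubb3 (0.96), Sox2 (-0.43) and Krt19 (3.22).

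The remaining genes were Tbx5, a delivered factor (0.23), and Mustn1 (2.14), Defb48 (1.37), Pkp2 (1.32), Ism1 (-1.65), Csdc2 (-1.76), Nr4a3 (-1.25), Angpt1 (-1.22), Akap6 (-1.16), Fam180a (-1.08), Arrdc3 (-1.08), Nrep (-1.07) and Rims2 (-1.04). Groups of 3 libraries are too small for the test of a single outlying value, which was not run gene by gene.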

How the results depend on the processing

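The 1615 calls were recomputed under 21 alternatives, 9 of processing and 12 that each left out a library, and no called shift of a named gene changed sign. The majority of calls was upward with TMM (856 against 759) and downward with library totals (522 against 1206), upper quartile scaling (737 against 853) and, by 1 gene, a stricter filter (800 against 801). With library totals the median shift of all genes was -0.06. Some list medians changed sign too, being 0.19 for sarcomere genes but -0.08 without siControl replicate 2 of day 0, and 0.03 for fibroblast identity genes but -0.03 with library totals. With only the libraries of days 0 and 1 in the fit, 2448 genes were called (1299 up and 1149 down), and the classes called at day 1 alone and with opposite signs held 541 and 258 genes. The cause of these changes was not tested. No filter gave 1036 up and 700 down, and DESeq2 952 and 931. The shift itself fell weakly with gene length (Spearman rho -0.12 across genes). With an offset for the trend of each library over gene length, 1834 genes were called (1039 up and 795 down). With the replicate number as a block, 1503 genes were called (799 up and 704 down), although the numbers do not pair the libraries. Leaving out each library gave 1219 to 1465 calls, 660 to 850 up and 559 to 691 down. The classes then held 658 to 789 genes called at day 0 alone, 230 to 326 at day 1 alone and 116 to 163 with opposite signs. Counts of upward shifts were 15 to 27 for interferon, 18 to 19 for Hippo and Srf, and 12 to 15 for myofibroblast genes. Of the 89 called genes named, 75 stayed called in every alternative and 14 were lost in at least 1 (Csdc2, Fbl, Gpc6, Mustn1, Mvd, Nop58, Pdgfrb, Prrx1, Sdc2, Sox2, Stard4, Tbx5, Tubb3 and Wdr43). Another 7 uncalled ones were called in at least 1 (Cfl1, Col5a2, Cryab, Gata4, Npm1, Sfrp1 and Smtn). Values under 1 CPM, such as those of Mustn1, Csdc2 and Krt8 at day 0, are limited by depth.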
